A study of Mus musculus with 48 samples.

Results

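Transcripts of 9 genes that are widely used to identify macrophages were followed in the small intestine of growing mice: Csf1r, Cx3cr1, Adgre1, C1qa, C1qb, C1qc, Cd163, Mrc1 and Timd4. The genes were taken by symbol, and all 9 were found once among the 51106 gene identifiers that the deposited tables pair with a symbol, out of 54532 identifiers in all. All 9 also passed the filter on low counts, as did 21986 genes in total. Each sample was a 2 cm piece of intestine with all wall layers, taken either as duodenum, just past the stomach outlet, or as ileum, just before the caecum. Both regions were sampled at 8 ages: at birth (day 0), on day 2, on day 4, on day 6 and on day 8, then at week 2, week 3 and week 4, and 3 samples were taken for each region and age, 48 in all. The mice were untreated C57BL/6J animals of both sexes from Jackson Laboratory, usually with 2 or 3 ages drawn from a litter. Pups were kept with the mother up to day 21, and older animals ate chow. The labels call the housing germ-free and also speak of variation in microbial exposure, so whether the animals carried microbes is not settled here. The labels do not say whether samples of 1 group are separate animals or whether a duodenum and an ileum sample with the same number came from 1 mouse, so p-values measure the spread between these samples.

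Macrophages take up dying cells, microbes and debris, and in the gut they sit in the lamina propria, in the muscle layer and along vessels and nerves. Csf1r encodes the receptor for the growth factors CSF1 and IL-34, on which macrophages depend for survival. Cx3cr1 encodes the receptor for the chemokine CX3CL1, also called fractalkine, and Adgre1 encodes the surface protein known as F4/80. C1qa, C1qb and C1qc encode the chains of C1q, the recognition molecule that starts the classical complement pathway and that tissue macrophages make. Cd163 encodes the scavenger receptor for haemoglobin bound to haptoglobin, Mrc1 encodes the mannose receptor (CD206), and Timd4 encodes TIM-4, a receptor for phosphatidylserine on dying cells that marks long-lived macrophages in several tissues. Around birth the gut holds macrophages of embryonic origin, and monocytes from the blood are known to replace most of them as the animal grows.

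Levels are given as CPM, counts per megacount of a library after scaling between libraries, and a gene was called different where its adjusted p was under 0.05. The samples labelled day 6 sample 3 were left out in both regions, so day 6 has n = 2 and 46 samples were used. Under their labels, the duodenum sample had Pdx1, which encodes a regulator of pancreas and duodenum, at 0.115 CPM against 11.1 and 11.8 CPM in the other two, and the ileum sample had it at 14.6 CPM against 0.0872 and 0.421 CPM. Csf1r crossed over in the same way, with 116 CPM in that duodenum sample and 26.9 CPM in that ileum sample. The 46 libraries held 16824021 to 65042327 estimated counts. A low count limits precision mainly for Cd163, whose counts were 0 to 184 per library, and for Timd4, at 1 to 112.

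The labelled tissue was checked by markers of the gut wall, in CPM not corrected for gene length. The summed level of 4 epithelial markers was 2674 to 8847 CPM, led by Epcam at a mean of 1371 CPM, against 3.41 to 156 CPM for 4 smooth muscle markers, led by Myh11 at 12.1 CPM. The smooth muscle sum was lowest in the duodenum at day 8, at 3.41 to 5.57 CPM, although the labels describe the whole wall. Because these are bulk samples, fewer macrophages, less RNA of a gene per macrophage and a change in RNA from other cells cannot be told apart in any result.

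The C1q genes lie side by side on chromosome 4 in 18675 bases of the GRCm38 build, all on the minus strand, at chr4:136880129-136886187 for C1qb, chr4:136889804-136893065 for C1qc and chr4:136895917-136898803 for C1qa. C1qb and C1qc are 3616 bases apart, and C1qc and C1qa are 2851 bases apart. Their joint course, described below, is one that several of the results below turn on, so the 250 bases before the RefSeq start sites of C1qb and C1qc are shown, read 5′ to 3′ on the strand of the gene. Capitals mark matches to letters of 2 motifs searched for on both strands, GAGGAA, which reads TTCCTC when the gene's opposite strand carries it, a core of sites of the myeloid factor PU.1, and TGCTGA, part of sites of MAF family factors.
C1qb, chr4:136886201-136886450, minus strand: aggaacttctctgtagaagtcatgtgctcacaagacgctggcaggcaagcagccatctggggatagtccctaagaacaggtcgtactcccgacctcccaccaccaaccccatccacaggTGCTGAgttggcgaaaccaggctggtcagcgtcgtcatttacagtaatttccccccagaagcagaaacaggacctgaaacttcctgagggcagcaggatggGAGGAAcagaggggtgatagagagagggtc
C1qc, chr4:136892915-136893164, minus strand: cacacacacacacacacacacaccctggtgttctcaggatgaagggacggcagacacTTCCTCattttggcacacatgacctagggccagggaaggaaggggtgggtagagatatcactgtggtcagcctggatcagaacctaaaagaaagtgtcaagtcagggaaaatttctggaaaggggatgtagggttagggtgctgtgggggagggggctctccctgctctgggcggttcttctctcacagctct
C1qb held GAGGAA at position -30 from the start site and TGCTGA at position -131, and C1qc held TTCCTC at position -193. These positions count from the RefSeq start sites, which differ from the ends of the genes as placed above, taken from GENCODE. For C1qc part of the stretch shown lies inside the gene as placed, which reaches position 136893065. RefSeq windows for GRCm38.p6, of 250 bases before and 50 after the start site, were matched for 6 of the 9 genes: C1qb, C1qc, Mrc1, Cd163, Cx3cr1 and Timd4. GAGGAA in either direction was in 3 of these 6 windows, C1qb, C1qc and Mrc1, and in 28.3% of all 32851 windows of this length. TGCTGA was in 2 of the 6, C1qb and Timd4, against 19.5% of all windows, and the AP-1 motif TGANTCA was in 0 of the 6, against 7.81%. GAGGAA is thus a common run of letters, and these matches describe the windows only.

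The remaining genes are spread over 6 further chromosomes. Csf1r lies at chr18:61100598-61132149 on the plus strand, Cx3cr1 at chr9:119901616-120069879 on the minus strand, and Adgre1 at chr17:57358691-57483527 on the plus strand. Cd163 at chr6:124304656-124330527, Mrc1 at chr2:14229392-14332057 and Timd4 at chr11:46810800-46844332 are on the plus strand. Per kilobase of exon, the median level over the 46 samples was highest for Csf1r, at 13.8 CPM per kilobase. C1qa followed at 4.62, C1qb at 3.82 and C1qc at 2.22 CPM per kilobase. Cx3cr1, Mrc1, Adgre1 and Timd4 came next at 0.875, 0.825, 0.707 and 0.464 CPM per kilobase, and Cd163 was last at 0.0292 CPM per kilobase. Cd163 was therefore close to absent in most samples and reached the filter's level of 0.305 CPM in 9 of 46, whereas Timd4 did so in 42 and the other 7 genes in all 46.

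**Figure D1:**
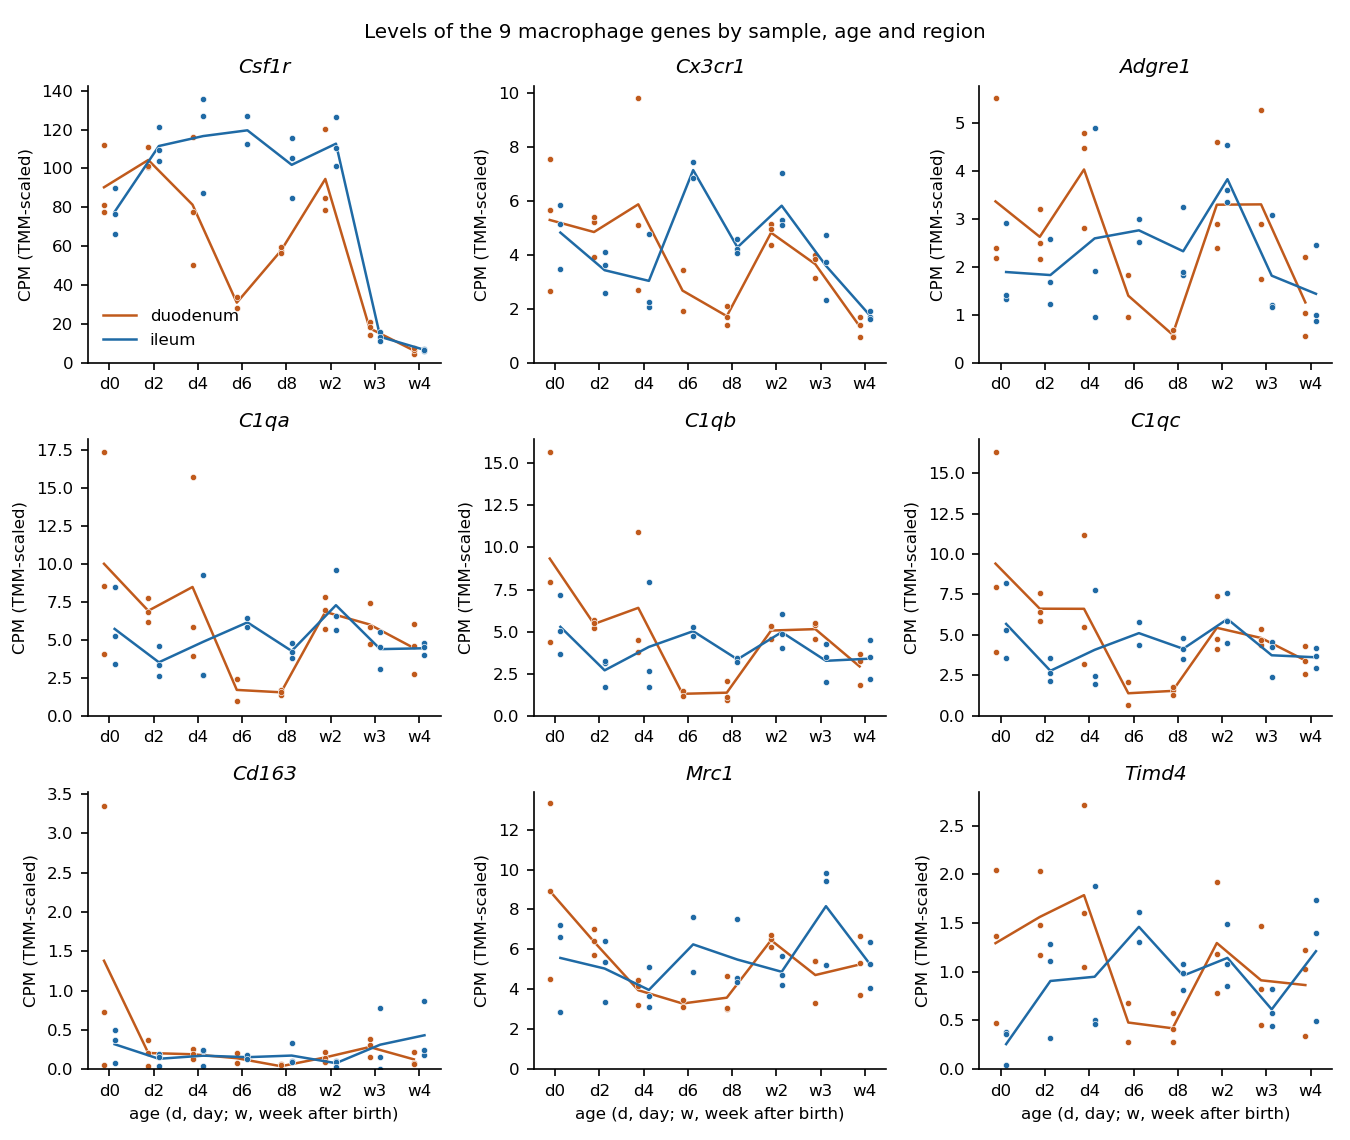
Level of each of the 9 genes (vertical axes, CPM after scaling, 1 panel a gene with its own axis from 0) at the 8 ages (horizontal axes, ages evenly spaced and not to scale). Points are samples, 3 a group and 2 at day 6, lines join the group means, and colours separate duodenum and ileum; the C1q genes and Adgre1 dip in the duodenum at day 6 and day 8, and Csf1r is low in both regions at week 3 and week 4.

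All 9 genes changed with age in the duodenum, and 2 did in the ileum, Csf1r and Cx3cr1. Across all genes tested, the share with an age effect was 67.4% in the duodenum and 58.7% in the ileum, so the duodenal count was above its background and the ileal count was below. The 9 genes were chosen with earlier results of these data known, and the C1q genes ran closely together. The comparison with the background is therefore no test of the set. The region by age interaction, which tests whether the course over age differed between the regions, was called for 7 of the 9 genes against 22.4% of all genes. Cd163 and Mrc1 did not pass it, at adjusted p = 0.24 and 0.058. The adjusted p was 0.000122 for Csf1r, 0.00658 for C1qb, 0.00762 for Cx3cr1 and 0.00777 for C1qc. For C1qa, Timd4 and Adgre1 it was 0.0106, 0.028 and 0.0329. With the day 6 samples numbered 3 kept under their labels, the interaction was called for 0 of the 9 and for 4.53% of all genes.

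The C1q genes were high in the duodenum at birth, lowest at day 6 and day 8, and back to intermediate levels at week 2. For C1qa, the 3 duodenum samples had 4.10, 8.56 and 17.4 CPM at day 0, 6.83, 6.16 and 7.80 CPM at day 2, and 3.92, 5.86 and 15.7 CPM at day 4. The 2 samples of day 6 had 2.44 and 0.985 CPM, and those of day 8 had 1.71, 1.37 and 1.58 CPM. Levels were 7.83, 6.996 and 5.74 CPM at week 2, 4.75, 5.86 and 7.47 CPM at week 3, while those of week 4 were 2.76, 6.06 and 4.60 CPM. Every day 6 and day 8 value lay below every value of the other 6 ages, while the samples of day 0 and day 4 were spread over a wide range that took in most of the later values. Ordered by group mean, the duodenal ages ran day 0, day 4, day 2, week 2, week 3, week 4, day 6, day 8, and 6 of the 7 neighbouring pairs overlapped in their samples, the exception being week 4 above day 6.

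C1qb and C1qc traced nearly the same course. C1qb had 4.41, 7.92 and 15.7 CPM in the duodenum at day 0 and 2.09, 0.949 and 1.10 CPM at day 8. C1qc had 3.94, 7.97 and 16.3 CPM at day 0 and 1.60, 1.27 and 1.76 CPM at day 8. For all 3 chains the day 0 and day 8 samples did not overlap, and the same day 0 sample, number 3, was the highest. From day 0 to day 8, C1qa fell by 2.70 on the log2 scale (SE 0.48, adjusted p = 1.94e-05), C1qb by 2.76 (SE 0.45, adjusted p = 5.32e-06) and C1qc by 2.61 (SE 0.47, adjusted p = 2.26e-05). Without duodenum day 0 sample 3 the fall of C1qa was 2.03 on the log2 scale, and it was still called.

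The fall from day 0 to day 8 in the duodenum took in all 9 genes, against 41.2% of all genes called in that comparison and 19.2% called lower. Their median log2 change was -2.53, against -0.06 over all genes tested. Adgre1 had 2.38, 2.19 and 5.52 CPM at day 0 and 0.681, 0.548 and 0.525 CPM at day 8, with no overlap, a fall of 2.53 on the log2 scale (SE 0.54, adjusted p = 0.000206). Cx3cr1 had 2.66, 5.65 and 7.54 CPM at day 0 and 2.09, 1.69 and 1.39 CPM at day 8, again apart, and fell by 1.62 (SE 0.36, adjusted p = 0.000359). Csf1r fell by less, 0.65 on the log2 scale (SE 0.21, adjusted p = 0.0139), from 112, 77.7 and 81.0 CPM to 57.3, 56.3 and 59.5 CPM, and without duodenum day 0 sample 1 the call on Csf1r was lost. The scavenger and phosphatidylserine receptors are described below. The count of genes called lower was 8 or 9 with any 1 duodenum sample left out.

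In the ileum the same days brought no such fall. C1qa had 3.44, 5.26 and 8.50 CPM at day 0, 6.47 and 5.86 CPM at day 6, and 4.78, 4.21 and 3.85 CPM at day 8, and these ranges overlapped. Of the 9 genes, 1 was called between day 0 and day 8, Timd4, which was higher at day 8, against 19.3% of all genes. That call was lost without any 1 of the day 0 or day 8 samples of the ileum, or without ileum day 6 sample 2. For each C1q gene all 7 neighbouring pairs of ages overlapped when the ileal ages were ordered by mean, with the top place held by week 2 for C1qa and C1qc and by day 0 for C1qb.

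**Figure D2:**
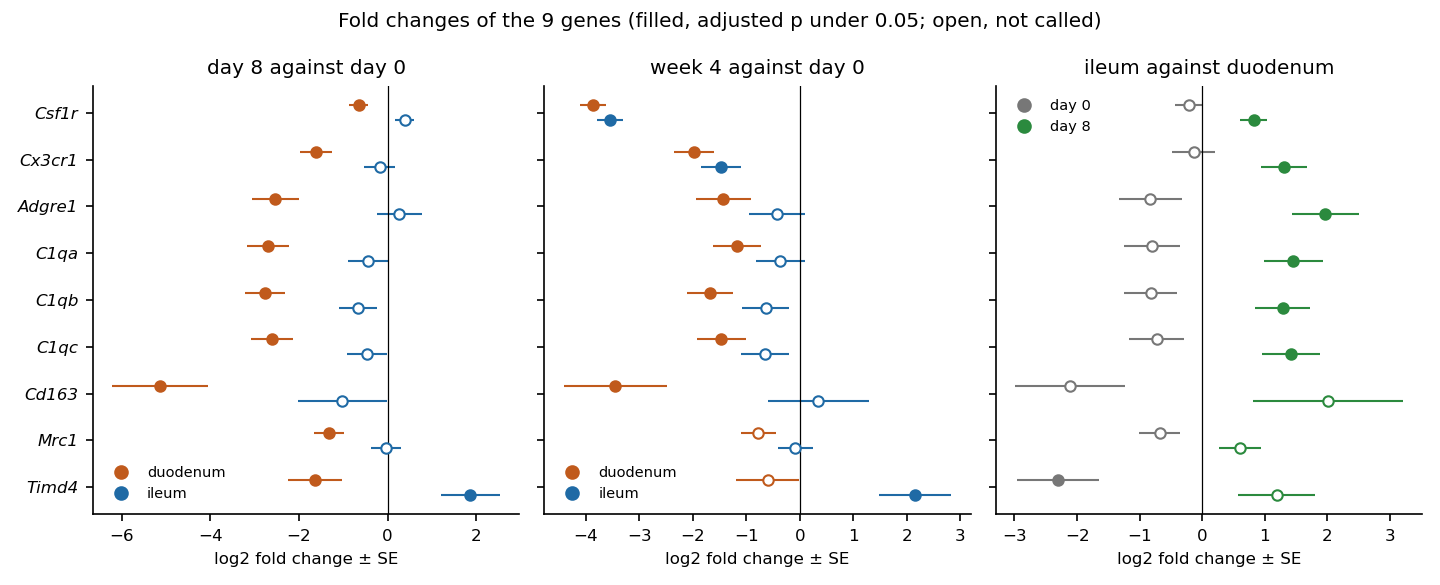
Log2 fold changes of the 9 genes with bars of 1 standard error from the edgeR fit; panels give day 8 against day 0 and week 4 against day 0 in each region, and ileum against duodenum at day 0 and at day 8, and filled points are called at an adjusted p under 0.05. In the duodenum all 9 points of day 8 against day 0 are filled and below 0, and Csf1r is the lowest at week 4 in both regions.

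Between day 8 and week 2 the duodenal levels rose again for 6 of the 9 genes, against 15.7% of all genes called and 6.75% called higher. C1qa rose by 2.14 on the log2 scale (adjusted p = 0.00277), C1qb by 1.88 (adjusted p = 0.00428) and C1qc by 1.82 (adjusted p = 0.00702). Adgre1 rose by 2.49 (adjusted p = 0.00229), to 4.60, 2.39 and 2.89 CPM, and Cx3cr1 by 1.48 (adjusted p = 0.00495), to 5.14, 4.35 and 4.95 CPM. Csf1r rose by 0.71 (adjusted p = 0.0199), and Cd163, Mrc1 and Timd4 did not pass the test. The count was 4 without duodenum week 2 sample 1 and 8 with DESeq2, which gave an adjusted p for 8 of the 9 and called 24.3% of all genes. In the ileum 0 of the 9 were called over this step by edgeR, with 0 at an unadjusted p under 0.05 and 0 by DESeq2, against 6.64% of all genes.

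Calls between the regions gathered at day 6 and day 8. At day 8, C1qa was at 4.78, 4.21 and 3.85 CPM in the ileum and 1.71, 1.37 and 1.58 CPM in the duodenum, and Adgre1 was at 3.24, 1.83 and 1.90 CPM in the ileum and 0.681, 0.548 and 0.525 CPM in the duodenum. Neither gene overlapped between the regions. Higher levels in the ileum were called for 6 of the 9, against 39.6% of all genes called and 17.1% called higher. The log2 differences were 1.97 for Adgre1 (SE 0.54, adjusted p = 0.00399), 1.46 for C1qa (SE 0.47, adjusted p = 0.0137), 1.42 for C1qc, 1.31 for Cx3cr1, 1.28 for C1qb and 0.82 for Csf1r. The median over the 9 genes was 1.31, against 0.00 over all genes tested. The count was 4 without duodenum day 8 sample 2.

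At day 6, 5 of the 9 were called higher in the ileum, against 35.3% of all genes called and 17.8% called higher. On the log2 scale Csf1r was higher by 1.95 (SE 0.27, adjusted p = 1.81e-06), C1qb by 1.94, C1qc by 1.87, C1qa by 1.85 and Cx3cr1 by 1.42. With 2 samples a region this rests on few values, and the count was 1 without duodenum day 6 sample 2 and 3 without ileum day 6 sample 1. With the samples numbered 3 kept under their labels it was 0, as it was for all genes tested.

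At the remaining ages few of the genes differed between the regions. At day 0, 1 of the 9 was called, Timd4, against 6.1% of all genes. At day 4 it was 1, Cx3cr1, against 26.6%, with 2.08, 4.75 and 2.26 CPM in the ileum and 2.69, 5.10 and 9.80 CPM in the duodenum, ranges that overlap. The log2 difference of Cx3cr1 at day 4 was -0.96 (SE 0.35, adjusted p = 0.0408). That call was lost with only the compared groups, with 48 samples, and without any 1 of duodenum day 4 samples 2 and 3, ileum day 4 samples 1 and 3, duodenum week 4 sample 3 and ileum week 4 samples 2 and 3. Without duodenum day 4 sample 3 the difference was -0.37. The count at that age was 0 without duodenum day 4 sample 2 or ileum day 4 sample 1 and 6 without ileum day 4 sample 2. Without duodenum day 0 sample 3, duodenum week 4 sample 1 or duodenum week 4 sample 2 it was 2. By edgeR none of the 9 were called at day 2, week 2, week 3 or week 4, where 8.01%, 22.4%, 14.2% and 28.4% of all genes were. At these 4 ages in turn, the unadjusted p was under 0.05 for 3, 0, 1 and 0 of the 9, and DESeq2 called 0 at each. With only the compared groups in the edgeR model, 3 were called at day 2, where 23.9% of all genes were, and without the day 4 samples it was 1 at day 2 and 1 at week 3. In the edgeR fit of all groups, C1qc was called at day 2 without ileum day 4 sample 2, and Mrc1 at week 3 without ileum week 3 sample 1. Averaged over the 8 ages, Csf1r alone was called, higher in the ileum by 0.39 on the log2 scale (SE 0.08, adjusted p = 5.84e-05), against 62.1% of all genes, and Cx3cr1 joined it without duodenum day 4 sample 3.

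Markers of other cells of the gut wall also differed between the regions, at day 6 and day 8 and at other ages. In the duodenum the summed level of 6 endothelial and lymphatic markers, led by Pecam1, was 57.1 to 97.3 CPM at day 0, 14.1 to 20.02 CPM at day 6 and 7.78 to 12.1 CPM at day 8, and 5 of the 6 were called lower at day 8 than at day 0, against 19.2% of all genes. In the ileum that sum was 68.5 to 75.8 CPM at day 6 and 45.3 to 57.7 CPM at day 8. All 6 endothelial and lymphatic markers and all 4 smooth muscle markers were called higher in the ileum than in the duodenum at both ages, with median log2 differences at day 8 of 3.04 and 3.59. Of all genes, 17.8% were called higher in the ileum at day 6 and 17.1% at day 8. In the duodenum the endothelial sum was 10.1 to 31.3 CPM at day 4 and 18.5 to 21.8 CPM at week 2. The 3 C1q genes together were at 12.4 to 49.4 CPM there at day 0, 10.9 to 37.8 CPM at day 4 and 15.05 to 20.5 CPM at week 2. The part of these markers in the results for the 9 genes was not tested.

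**Figure D3:**
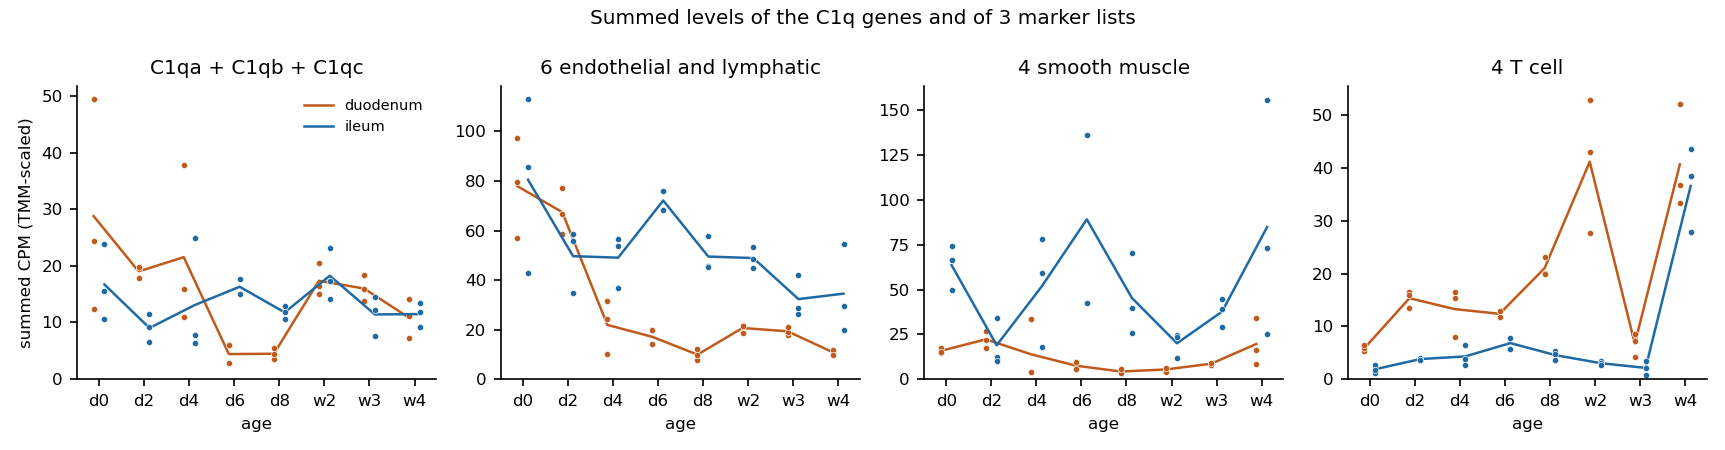
Summed levels (vertical axes, CPM) by age (horizontal axes, ages not to scale) of the 3 C1q genes, 6 endothelial and lymphatic markers, 4 smooth muscle markers and 4 T cell markers; points are samples and lines join group means for duodenum and ileum. The C1q and endothelial sums are both low in the duodenum at day 8, at 3.58 to 5.41 and 7.78 to 12.1 CPM, and at week 2 the C1q sum is 15.05 to 20.5 CPM and the endothelial sum is 18.5 to 21.8 CPM against 57.1 to 97.3 CPM at day 0.

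Among the scavenger receptors, Cd163 was the scarcest and the most uneven. Its 3 duodenum samples at day 0 had 0.0555, 0.729 and 3.35 CPM, from counts of 2, 16 and 184, and those at day 8 had 0, 0.0633 and 0.0457 CPM, from counts of 0, 3 and 2. The lowest sample of day 0 lay among those of day 8. The fitted change was -5.13 on the log2 scale (SE 1.08, adjusted p = 0.000179), a value that rests on day 0 sample 3 and was -3.23 in the fit without it. In the ileum Cd163 stayed between 0 and 0.869 CPM, with its highest value at week 4.

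Mrc1 was steadier. In the duodenum it had 4.52, 8.93 and 13.3 CPM at day 0, 3.47 and 3.11 CPM at day 6, and 4.68, 2.99 and 3.06 CPM at day 8, where the highest sample of day 8 was above the lowest of day 0. The fall from day 0 to day 8 was 1.32 on the log2 scale (SE 0.33, adjusted p = 0.00133). All 7 neighbouring pairs of ages overlapped in both regions when ordered by mean, and the ileal maximum was at week 3, at 5.24, 9.85 and 9.41 CPM. It was the only gene of the 9 with no separated pair in either region, but C1qa, C1qb, Cd163 and Timd4 had just 1, in 1 region only. How often this holds over all genes was not tested.

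Timd4 moved in opposite directions in the regions. In the duodenum it had 0.471, 1.37 and 2.04 CPM at day 0 and 0.571, 0.274 and 0.411 CPM at day 8, with an overlap of 1 sample on each side, a fall of 1.63 on the log2 scale (SE 0.61, adjusted p = 0.0287) that was not called without any 1 of duodenum day 0 samples 2 and 3 and day 8 samples 2 and 3. In the ileum Timd4 was lowest at birth, at 0.0370, 0.376 and 0.356 CPM, and every sample of day 8 was higher, at 0.990, 0.814 and 1.08 CPM. The log2 rise was 1.87 to day 8 (adjusted p = 0.0434) and 2.16 to week 4 (SE 0.67, adjusted p = 0.00933), when the samples had 1.40, 0.497 and 1.74 CPM. At day 0 the ileum was below the duodenum, at -2.30 on the log2 scale (SE 0.66, adjusted p = 0.0278), with no overlap of samples. That difference was not called without duodenum day 0 sample 2 or 3 or ileum day 0 sample 1 or 3. The lowest ileum value at day 0 rests on a count of 1. The ileal rise to day 8 lost its call without any 1 of the ileum samples of day 0 or day 8. The rise to week 4 lost its call without ileum day 0 sample 1 or ileum week 4 sample 3.

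From day 0 to week 4, 7 of the 9 genes fell in the duodenum, all but Mrc1 and Timd4, against 40.5% of all genes called and 20.1% called lower. Their changes ranged from -1.17 for C1qa (adjusted p = 0.0357) to -3.86 for Csf1r (adjusted p = 8.27e-16), with a median over the 9 genes of -1.46 against -0.02 over all genes. This count depends on 1 sample of day 0: without duodenum day 0 sample 3, the one with the highest C1q levels, 2 genes were called, Csf1r and Cx3cr1, and the change of C1qa was -0.45. It was 4 without duodenum week 4 sample 1 and 4 when the fit held day 0 and week 4 of the duodenum only. In the ileum 3 of the 9 were called, against 41.9% of all genes: Csf1r at -3.56 (SE 0.24, adjusted p = 6.32e-15), Cx3cr1 at -1.47 (SE 0.37, adjusted p = 0.0015) and Timd4, which was higher. The median over the 9 genes was -0.43 in the ileum, against 0.08 over all genes.

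Whether the change to week 4 differed between regions was tested directly and was called for none of the 9 by edgeR, against 5.99% of all genes. The unadjusted p was under 0.05 for 2 of them and DESeq2 called 1. The largest differences were those of Cd163, 3.80 on the log2 scale (adjusted p = 0.0794), and Timd4, 2.76 (SE 0.89, adjusted p = 0.0563), both called without duodenum day 0 sample 1. Timd4 alone was called without duodenum day 4 sample 3, duodenum week 4 sample 2, ileum day 4 sample 2 or ileum week 4 sample 2.

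Cx3cr1 fell once more between week 3 and week 4. It had 3.14, 3.98 and 3.83 CPM in the duodenum at week 3 and 0.965, 1.70 and 1.38 CPM at week 4, with no overlap, a log2 change of -1.43 (SE 0.37, adjusted p = 0.00666). In the ileum the week 4 samples, at 1.92, 1.68 and 1.60 CPM, lay below every earlier ileum sample, and the change from week 3 was -1.05 (SE 0.38, adjusted p = 0.0512), just short of a call. Its ligand gene Cx3cl1 was not called between day 0 and week 4 in either region.

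Csf1r had a course of its own. In the duodenum it was at 101, 111 and 101 CPM at day 2, 77.5, 50.5 and 116 CPM at day 4, 28.2 and 33.6 CPM at day 6, and 121, 78.4 and 85.0 CPM at week 2. By week 3 it had dropped to 20.7, 18.2 and 14.2 CPM, and by week 4 to 4.46, 6.62 and 7.64 CPM. In the ileum it was at 127, 101 and 111 CPM at week 2, 15.7, 13.1 and 11.1 CPM at week 3, with 6.23, 6.98 and 6.55 CPM left at week 4. In both regions every week 3 sample lay below every earlier sample, and every week 4 sample below every week 3 sample.

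The log2 change of Csf1r from week 2 to week 3 was -2.42 in the duodenum (SE 0.23, adjusted p = 1.05e-10) and -3.08 in the ileum (SE 0.23, adjusted p = 3.49e-13). From week 3 to week 4 it fell by a further 1.51 in the duodenum (adjusted p = 6.52e-06) and 1.01 in the ileum (adjusted p = 0.00151). Of the other 8 genes none were called between week 2 and week 3 in either region, where 18.3% (duodenum) and 26.8% (ileum) of all genes were called. In this step the unadjusted p was under 0.05 for Csf1r alone in the duodenum and for 3 of the 9 genes in the ileum, and DESeq2 called 1 in each. Without ileum week 3 sample 1, Adgre1 and Mrc1 were called in the ileum besides Csf1r. From week 3 to week 4, Csf1r and Cx3cr1 were called in the duodenum, 2 of 9 against 12.7% of all genes, and Csf1r alone in the ileum, 1 of 9 against 16.1%, joined by Cx3cr1 without any 1 of ileum day 0 sample 1, day 4 samples 1 and 2 and week 3 sample 3. C1qa, for comparison, changed by -0.18 (SE 0.45, adjusted p = 0.83) in the duodenum and by -0.73 (SE 0.45, adjusted p = 0.25) in the ileum from week 2 to week 3. The ratio of Csf1r to C1qa was 11.2 to 15.4 in duodenal and 13.2 to 19.4 in ileal samples of week 2, and 1.09 to 1.66 and 1.29 to 1.63 in those of week 4, and it ranged from 1.09 to 50.5 over all samples.

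The genes whose levels ran closest to Csf1r over the 46 samples were not macrophage genes but Rab3il1 (Pearson r = 0.973), which encodes an exchange factor for RAB proteins, Bmp7 (r = 0.972), which encodes a secreted growth factor, and Ass1 (r = 0.969), which encodes a step of arginine synthesis. These correlations are of log2 CPM among 12349 genes with a mean of at least 1 on that scale, and all genes share the same libraries and ages. Ass1 had a mean of 359 CPM in the ileum at week 2 and 20.3 CPM at week 3, Bmp7 92.2 and 12.8 CPM, and Rab3il1 45.7 and 1.25 CPM. All 3 genes were called lower at week 3 than at week 2 in both regions, as Csf1r was. Against C1qa, by contrast, the correlation of Csf1r was 0.181, and against Cx3cr1 it was 0.619.

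**Figure D4:**
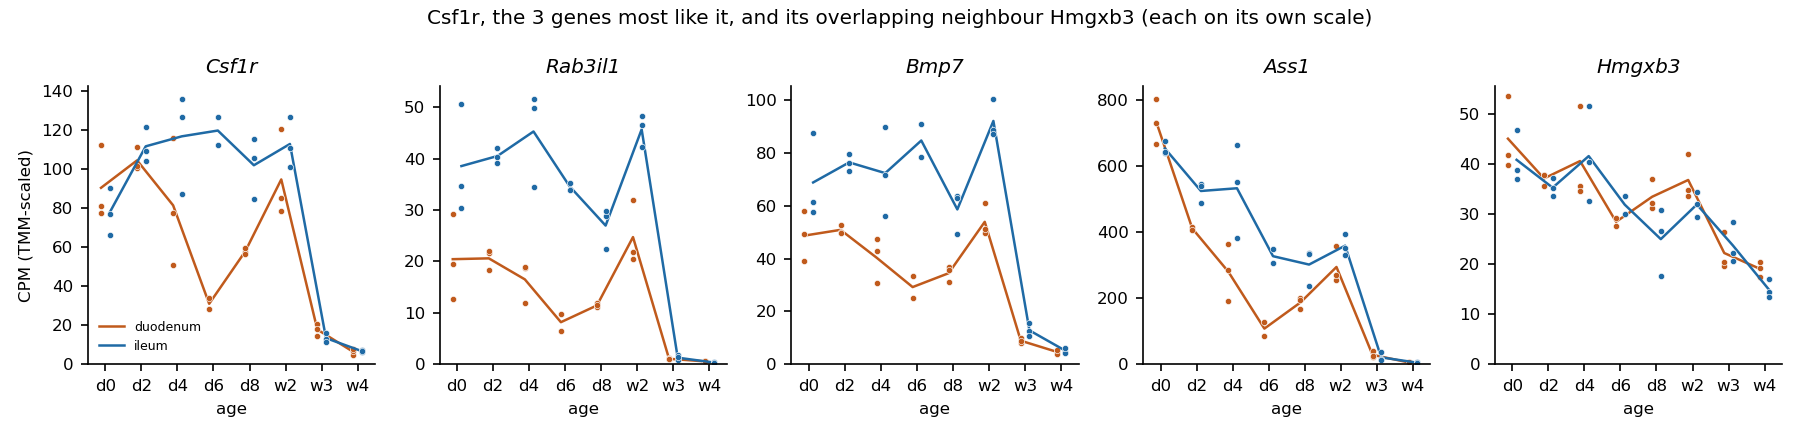
Levels (vertical axes, CPM on a linear scale, each panel with its own axis) by age (horizontal axes, ages not to scale) of Csf1r, of the genes with the highest correlation to it, Rab3il1, Bmp7 and Ass1, and of Hmgxb3, whose 3′ end overlaps that of Csf1r; points are samples and lines join group means. Csf1r, Rab3il1, Bmp7 and Ass1 drop between week 2 and week 3 in both regions.

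Csf1r shares 873 bases at its 3′ end with the gene Hmgxb3, which lies on the opposite strand at chr18:61131277-61177050, and 14.9% of the 31-base windows of its exons also occur in another gene. Whether the counting used the strand is not stated, so reads from the shared stretch cannot be told apart. Hmgxb3 had 13.4 to 53.6 CPM (median 33.1), and its correlation with Csf1r was 0.828. It was at a mean of 45.1 CPM in the duodenum at day 0 and 19.0 CPM at week 4, and 40.8 and 14.9 CPM in the ileum. Its fall from day 0 to week 4 was 1.25 on the log2 scale in the duodenum and 1.45 in the ileum, against 3.86 and 3.56 for Csf1r. The share of ambiguous windows was 3.28% for Cx3cr1 and 0.583% for Cd163 and 0 for the other 6 genes.

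The C1q genes, by contrast, ran closely with each other. Over the 46 samples the correlation of log2 CPM was 0.972 for C1qa with C1qc, 0.95 for C1qa with C1qb and 0.946 for C1qb with C1qc. The ratio of C1qb to C1qa had a median of 0.774 and ranged from 0.55 to 1.22, and that of C1qc to C1qa had a median of 0.862 and ranged from 0.591 to 1.23. Over the same samples C1qa itself ran from 0.985 to 17.4 CPM, so the ratios varied far less than the levels. Outside the trio, the correlation with C1qa was 0.767 for Adgre1, 0.716 for Cx3cr1, 0.648 for Timd4, 0.534 for Mrc1 and 0.456 for Cd163. For Timd4 it was 0.849 in the duodenum and 0.434 in the ileum.

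**Figure D5:**
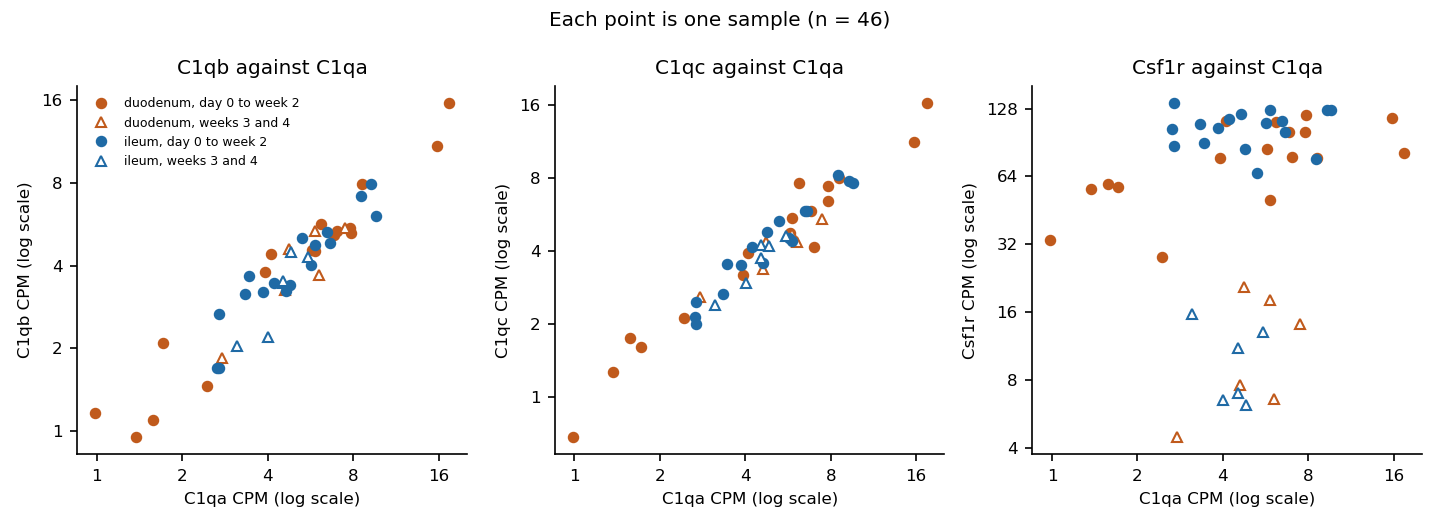
Level of C1qb, C1qc and Csf1r (vertical axes, CPM on a log scale) against that of C1qa (horizontal axes, CPM on a log scale) in the 46 samples, with duodenum and ileum in different colours and week 3 and week 4 as triangles. C1qb and C1qc lie along a line with C1qa, with correlations of 0.95 and 0.972, whereas the week 3 and week 4 samples of Csf1r lie apart below the rest (0.181 over all samples).

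Outside the 9 genes, the 3 closest to each C1q gene were Mpeg1, Apoe and Fcgr3. Mpeg1 encodes perforin-2, a pore-forming protein of phagocytes, Apoe encodes apolipoprotein E, and Fcgr3 encodes a receptor for immunoglobulin G. Their correlations with C1qa were 0.911, 0.869 and 0.828. Mpeg1 had a mean of 25.1 CPM in the duodenum at day 0, 5.73 CPM at day 8 and 19.7 CPM at week 2, a fall of 2.13 on the log2 scale to day 8 (SE 0.36, adjusted p = 9.39e-06). Apoe and Fcgr3 fell by 3.07 each. Mpeg1 was also the closest to Adgre1 (0.82), followed by Lair1 (0.728), a collagen receptor of leukocytes, and the chemokine receptor gene Ccr1 (0.654). Cx3cr1 had Cd33 (0.772), a sialic acid binding lectin, Ccr1 (0.759) and Mpeg1 (0.755) nearest to it. Timd4 was closest to Dnase1l3 (0.773), which encodes a secreted DNase of myeloid cells, then Apol7c (0.726) and Mpeg1 (0.718). The nearest genes were weaker for Cd163, with Ms4a6c (0.658), Ms4a6b (0.646) and Cstdc4 (0.635), and for Mrc1, with Nyap1 (0.62), Apoe (0.609) and Ggta1 (0.59).

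The genes of the ligands were measured beside those of the receptors. Csf1, the growth factor gene for the CSF1 receptor, had a mean of 3.80 CPM in the duodenum at day 0, 0.645 CPM at day 8 and 1.10 CPM at week 2, and 4.57, 3.25 and 2.44 CPM in the ileum. In the duodenum it fell by 2.56 on the log2 scale to day 8 (SE 0.46, adjusted p = 1.85e-05), and at day 6 and day 8 it was higher in the ileum by 3.84 and 2.33. Il34, the gene of the second ligand, had a mean of 0.868 CPM in the duodenum at day 0 and 3.74 CPM at week 2 and was not called at day 8 or week 4 against day 0 in either region. Cx3cl1 had 125 CPM in the duodenum at day 0, 68.8 CPM at day 8 and 138 CPM at week 2, and it fell by 0.87 (SE 0.22, adjusted p = 0.00141) to day 8.

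Of these 6 genes 4 fell from day 0 to day 8 in the duodenum, against 19.2% of all genes called lower. Csf2, the gene of the granulocyte-macrophage growth factor, fell by 1.86 to day 8 in the duodenum and was higher at week 4 than at day 0 by 1.60, at a mean of 2.30 CPM. Hp, the gene of haptoglobin, which binds the haemoglobin taken up through CD163, fell by 3.71 to day 8 and by 4.27 to week 4 there, from a mean of 0.8002 CPM. Ccl2, the gene of a chemokine that attracts monocytes, had means under 0.1 CPM at these ages and was not called. From day 0 to week 4 in the ileum 1 of these 6 genes was called, Csf1, at -1.07 (adjusted p = 0.0439), against 41.9% of all genes.

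Other macrophage genes fell with the 9 in the duodenum at day 8. Of all genes tested, 19.2% were called lower and 22% higher in this comparison, the background for each list here. Of 16 further general macrophage genes, 10 were called lower than at day 0 and 1, Cd14, the endotoxin co-receptor gene, was higher, with a median of -1.08 against -0.06 over all genes. Fcgr1, a high-affinity immunoglobulin receptor gene, was at -2.70, and Cd68, a lysosomal protein gene, at -1.29. Maf, a transcription factor gene and the most abundant of the list at a mean of 515 CPM, was at -0.91. Of 6 tested genes of long-lived tissue-resident macrophages, 4 fell, among them Folr2 at -1.94 and Hmox1, the haem oxygenase gene, at -4.37. Of 7 monocyte genes 5 fell, among them Chil3 at -8.65 and F13a1 at -3.77, while Plac8, the most abundant at a mean of 608 CPM, was at 0.38 and was not called. Several of these genes, Maf and Plac8 among them, are also made by cells other than macrophages.

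By week 4 these lists held calls in both directions. Of the 16 general macrophage genes, 3 were higher and 4 lower than at day 0 in the duodenum, where 20.4% of all genes were higher and 20.1% lower, so this split is close to the background. In the ileum 6 were higher and 4 lower, against 21.5% and 20.4% of all genes. Ptprc, the gene of the leukocyte antigen CD45, rose by 1.74 and 4.95 on the log2 scale and Cd14 by 1.94 and 3.37, while Fcgr1 fell by 2.28 and 2.37 and Cd68 by 1.54 and 2.32, each in the duodenum and the ileum. Of the 6 long-lived macrophage genes tested, 4 were lower in the duodenum, and 3 were lower and 1, Clec10a, higher in the ileum, with Hmox1 at -6.91 and -7.41 and Folr2 at -6.00 and -4.69. Of the 7 monocyte genes, 2 were higher and 3 lower in the duodenum and 3 were higher in the ileum. Of 6 tested complement genes that act with C1q, 3 were higher and 1 lower in the duodenum, and 5 were higher and 1 lower in the ileum. C4b and C3, genes of components cleaved downstream of C1, rose by 3.66 and 2.22 in the duodenum and by 2.58 and 2.62 in the ileum, and C2 fell by 1.202 and 1.89, beside -1.17 and -0.37 for C1qa.

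Lymphocyte markers were mostly higher at week 4 than at day 0, while those of other immune cells were mixed. Of 4 T cell and 4 B cell markers, 3 and 4 were called higher at week 4 than at day 0 in the duodenum and all 8 in the ileum, with Cd3g at 5.68 and 7.30. Of all genes, 20.4% were higher and 20.1% lower in the duodenum, and 21.5% and 20.4% in the ileum. The T cell marker sum, led by Trac, was 5.24 to 6.40 CPM in the duodenum at day 0 and 33.3 to 52.1 CPM at week 4. Between these ages it was not steady, at 27.7 to 52.9 CPM at week 2 and 4.23 to 8.58 CPM at week 3. The B cell sum, led by Ms4a1, was 53.5 to 196 CPM in the ileum at week 4. Of 7 tested dendritic cell markers, led by Itgae, which T cells of the epithelium also make, 2 were higher and 1 lower in the duodenum and 4 higher in the ileum. Among 3 tested eosinophil markers, led by Siglecf, 2 were higher in each region and 1 lower in the duodenum. Among 4 tested neutrophil markers, led by Ngp, 3 were lower in the duodenum and 1 in the ileum. Of 6 endothelial and lymphatic markers 4 and 3 were lower, all 4 epithelial markers were higher in both regions, and none of the 4 smooth muscle markers were called. Of 4 tested pancreatic acinar markers, led by Cela1, 1 was higher in the duodenum and none were called in the ileum. The duodenal counts of dendritic cell and acinar markers and the ileal count of neutrophil markers are close to the background. The part of any of these in the changes of the 9 genes was not tested.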

How the data were processed

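Per the labels, total RNA of 48 intestinal samples was read on an Illumina NovaSeq. The authors' estimated counts per gene are deposited in 1 table for all samples, and scaled signal, which the authors call normalized counts, is deposited in 2 tables, 1 per region, whose 40 columns are the estimated counts divided by 1 factor per column. STAR 2.6.1d, Salmon 0.14.2, DESeq2 1.30.1 and the mm10 build are named in the submitters' processing notes. The annotation release and any use of strand are not given in the sources used here. Estimated counts assign reads shared by transcripts through a model. Symbols come from the deposited tables, and coordinates from GENCODE M21 on GRCm38, the same assembly as mm10.

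Estimated counts were rounded and tested with edgeR 4.0.16 in R 4.3.3 (quasi-likelihood test, robust, TMM scaling, filterByExpr on the 16 groups with a minimum count of 10), with 1 mean per region and age over 46 samples and Benjamini-Hochberg adjustment over all 21986 genes tested. Each SE was computed as |log2 fold change| over the square root of the F statistic. The day 6 samples numbered 3 were left out because their region markers go against their labels. Alternatives were RLE scaling, other filters, DESeq2 1.42.0, limma 3.58.1 on log2 signal plus 1 or plus 0.1, fewer or all samples, a replicate block, and each sample left out in turn. The procedure was also run on simulated counts with the same dispersion for every gene and changes in the duodenum at week 4 only. That run does not cover genes as uneven as Cd163.

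The 9 genes and all lists were chosen with earlier results of these data known. Other genes named are the 3 closest to each of the 9 by Pearson correlation of log2 CPM (prior count 2, mean of at least 1), every gene of the ligand list, the most abundant gene of each other list, and from each list up to 2 genes with the greatest increase and 2 with the greatest decrease among those called for week 4 against day 0, of which those that bear on the text are printed. Pdx1 and Hmgxb3 were added after their values were seen.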

Additional observations from a re-analysis of the deposited data

Results flagged for a closer look

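The course over age differed between duodenum and ileum, by the region by age interaction in edgeR, for 7 of the 9 genes. The adjusted p was 0.000122 for Csf1r, 0.00762 for Cx3cr1, 0.0329 for Adgre1, 0.0106 for C1qa, 0.00658 for C1qb, 0.00777 for C1qc and 0.028 for Timd4, against 22.4% of all genes called. The regions were furthest apart at day 6 and day 8 for the C1q genes, Csf1r and Cx3cr1, with the duodenal samples the lower ones. For Adgre1 they were furthest apart at day 8, with the duodenum lower (log2 difference 1.97, adjusted p = 0.00399). At day 6 Adgre1 was not called (0.98, adjusted p = 0.233). For Timd4 they were furthest apart at day 0, where the ileal samples were the lower ones. The count was 5 to 8 with any 1 sample left out.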

How the results depend on the processing

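Of 61 results for single genes, each under several alternatives, 2339 of 2463 alternative values kept the direction and the side of the threshold, 81 lost and 7 gained a call, and 36 reversed. Of the 45 results called, 22 kept their call in every alternative run. The cause was not tested for any change below.

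Counts of the 9 genes with the larger moves were as follows, and most smaller moves are not listed. The ileal age effect, 2 genes, was 4 by limma with either pseudocount, in tables that lack the day 4 samples and with 8 of the 9 genes past the signal filter; in edgeR without day 4 it was 3. Week 4 against day 0 in the duodenum, 7 genes, was 4 with only the groups compared, and 5 without the filter on low counts and by limma with either pseudocount. The 4 steps between ages in the ileum held 3 calls, which became 1 with all 48 samples, 5 without day 4 and 6 by limma with either pseudocount. Ileum against duodenum averaged over ages, 1 gene, was 0 with 48 samples and 2 without day 4, and over the single ages the 13 calls became 4 with 48 samples and 18 with only the groups compared or the replicate block. The interaction, 7 genes, was 0 with 48 samples, where its share of all genes was 4.53%. The difference of the change to week 4, 0 genes, was 1 with a mean count of at least 10, without day 4, and by DESeq2.

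With each sample left out in turn, the count was 8 to 9 for the duodenal and 2 to 3 for the ileal age effect, 2 to 8 and 2 to 3 for week 4 against day 0, 16 to 19 and 2 to 5 for the steps, 1 to 2 for the regional average, 9 to 19 for the single ages, 5 to 8 for the interaction and 0 to 2 for the difference of changes.

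Results that reversed were not called in the reported fit. Mrc1 at week 4 in the ileum was 0.0148 and 0.0157 by limma with pseudocounts of 1 and 0.1. The regional average with 48 samples was -0.0431 for Adgre1, -0.11 for C1qa, -0.14 for C1qb, -0.11 for C1qc and -0.0646 for Cd163. With single samples left out, week 4 against day 0 in the ileum ran from -1.07 to 0.0501 for Adgre1, -0.63 to 0.0403 for C1qa, -0.60 to 0.89 for Cd163 and -0.40 to 0.14 for Mrc1. The regional average ran from -0.0404 to 0.16 for Adgre1, -0.0631 to 0.15 for C1qa, -0.0778 to 0.13 for C1qb, -0.0502 to 0.18 for C1qc and -0.18 to 0.30 for Cd163.

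The labels do not say that sample numbers pair the samples, and the data did not meet the condition set for a pairing, every pair above 0.1: over 23 duodenum and ileum pairs with the same number, deviations from the group means correlated at a mean of 0.076 (-0.147 to 0.452, 9 pairs above 0.1), against -0.0394 over 44 other pairs (6 above 0.1). With the number as a replicate block, 6 genes were called for week 4 against day 0 in the duodenum, 8 for day 8 against day 0, 6 and 7 for the regions at day 6 and day 8, and 8 for the interaction. The age effect in the duodenum was then called for 8 of the 9 genes. Between the regions 1 gene was called at day 2 and 1 at week 3. Of the reported calls on single fold changes, 3 were not made: in the duodenum C1qa at week 4 and Timd4 at day 8, each against day 0, and Cx3cr1 between regions at day 4. Depth limits Cd163 most, at 0 to 184 counts a library.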
